A study of Sus scrofa with 2 samples.

Results

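The class I genes of the swine leukocyte antigen (SLA) complex, the major histocompatibility complex of the pig, were examined in ovarian tissue of conventional pigs and minipigs. The set comprised the classical genes SLA-1, SLA-2 and SLA-3 and the nonclassical genes SLA-6, SLA-7 and SLA-8, and its probes were chosen by transcript accession alone, without regard to their intensities. Of the 6 genes, 4 had probes whose accession was listed for them in the pig RefSeq annotation, with 13 probes out of 43597 on the array. The array held named probes for 2459 genes in all. SLA-3 had 7 probes, SLA-8 had 4, and SLA-6 and SLA-7 had 1 each. For SLA-1 and SLA-2 the accessions matched no probe, and these genes were not analysed here. The files used here hold the names of the probes but no probe letters, so no sequence is printed.

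The design compared the ovaries of both kinds of pig on day 15 of the estrous cycle, when the corpora lutea regress. Total RNA of Yorkshire sows was hybridised to 1 single-colour Cy3 array and that of Midget minipigs to 1 array, and both arrays lay on the same slide. The animals of both groups were female, untreated as far as the labels state, and of the same age per the methods. Luteal tissue was cut away before extraction, and neither the labels nor the methods state whether an array held RNA of 1 animal or of several. A single array stood for each breed, so no test was run, the differences lack a replicate check, and the number of arrays limits the precision. The deposited log2 table attaches the breeds to the arrays the other way round from the scanner files. All values below follow the scanner files, and with the breeds of that table each direction would be reversed.

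A class I molecule consists of a polymorphic heavy chain, which the SLA genes encode, and of beta-2 microglobulin, the invariant light chain. Peptides cut by the proteasome are carried into the endoplasmic reticulum by the TAP transporter, loaded onto the heavy chain with the help of chaperones such as calreticulin, and shown on the cell surface to cytotoxic T cells. Classical class I genes are expressed in most nucleated cells and vary strongly between animals, whereas the nonclassical genes vary less and are expressed at lower levels or in fewer tissues. In the RefSeq order of genes, SLA-8, SLA-7 and SLA-6 follow each other with no other gene between them, and 37 entries lie between them and SLA-3. The classical genes resemble each other closely, and the annotation also lists SLA-1 and SLA-7 among the other names of SLA-3. Binding of transcripts of other class I genes by the SLA-3 probes was not tested, so its values are uncertain in this respect.

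Levels are log2 intensities relative to the 75th percentile of the array, which was 494 intensity units in the minipig and 513 in the conventional pig. Differences are log2 levels of the conventional pig array minus those of the minipig array. Each array is called by its breed. Both arrays gave all 13 class I probes an intensity well above background, and none was saturated or carried an outlier flag. Each was printed once. The only technical replication on the arrays came from 42 other probes printed several times, whose spots gave an SD of 0.25 for a log2 difference between single spots. This spread covers spots and not animals.

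**Figure D1:**
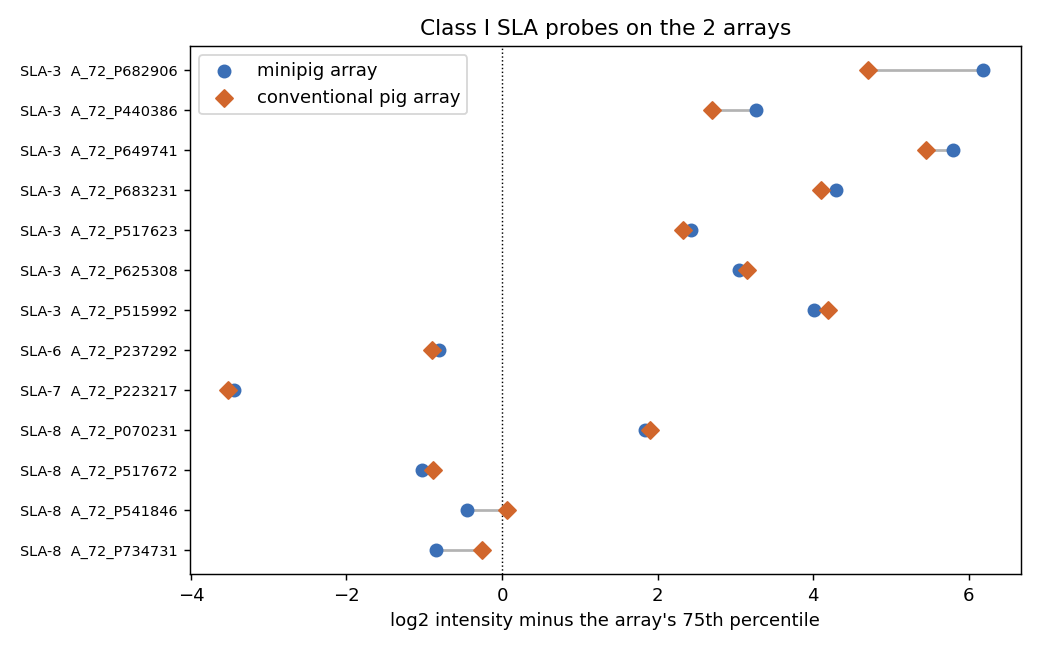
The horizontal axis gives the log2 intensity minus the 75th percentile of the array for each of the 13 class I probes, with circles for the minipig array, diamonds for the conventional pig array and a grey line joining them. The widest gap belongs to the SLA-3 probe A_72_P682906, at 6.18 in the minipig and 4.71 in the conventional pig.

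SLA-3 is a classical heavy chain gene. Under the scaling used throughout, most of its probes had similar levels on both arrays, and A_72_P682906 was clearly higher in the minipig. The probe A_72_P682906 had an intensity of 35878 in the minipig and 13410 in the conventional pig, a log2 difference of -1.47 or 2.78-fold. The probe A_72_P440386 had a level of 3.27 in the minipig and 2.71 in the conventional pig, a difference of -0.56. With this scaling, these were the only SLA-3 probes whose difference exceeded 2 SD of single spots, which is 0.51. Under median centring A_72_P440386 was at -0.41, below 2 SD. Of the remaining probes, A_72_P649741 had levels of 5.80 in the minipig and 5.45 in the conventional pig, a difference of -0.35. The probe A_72_P683231 had levels of 4.30 and 4.10 in the same order, a difference of -0.20. The probe A_72_P517623 had levels of 2.43 and 2.32, a difference of -0.10 that turned positive under median centring. All 3 of these differences were below 2 SD of single spots under the scaling used throughout. Under quantile normalization A_72_P649741 was at -0.65 and A_72_P683231 at -0.60, both past 2 SD. Under loess normalization A_72_P649741 was at -0.53, past 2 SD, and A_72_P683231 at -0.42, below it. The probe A_72_P625308 had levels of 3.05 in the minipig and 3.16 in the conventional pig, a difference of 0.11. The probe A_72_P515992 had levels of 4.02 and 4.19, a difference of 0.18. Both of these positive differences turned negative under quantile and loess normalization, where all SLA-3 probes were brighter in the minipig. The similarity of most probes thus depended on the scaling.

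Taken over its 7 probes, SLA-3 had a median log2 difference of -0.20, with 5 probes brighter in the minipig and 2 in the conventional pig. Leaving out any single probe kept this median between -0.27 and -0.15. Over the settings computed from the scanner intensities of all 7 probes, the median was closest to 0 under median centring, at -0.04, and farthest from it under quantile normalization, at -0.60. The probes themselves ran from -1.47 to 0.18.

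SLA-8, a nonclassical class I gene, was higher on the conventional pig array by each of its 4 probes, of which 1 changed sign with the scaling, and had a median log2 difference of 0.33. The probe A_72_P734731 had an intensity of 275 in the minipig and 430 in the conventional pig, a difference of 0.59. The probe A_72_P541846 had intensities of 361 and 535 in the same order, a difference of 0.52. Both differences exceeded 2 SD of single spots, and neither reached 2-fold. The probe A_72_P517672 had intensities of 242 in the minipig and 276 in the conventional pig, a difference of 0.14. The probe A_72_P070231 had intensities of 1772 and 1911, a difference of 0.06, which turned negative under normexp background correction and under quantile and loess normalization. The median of SLA-8 remained positive under every scaling, between 0.26 under normexp correction and 0.48 under median centring. It was 0.06 when the gene was read from its brightest probe alone, and between 0.14 and 0.52 when any single probe was left out.

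SLA-7, a nonclassical gene that is conserved between animals, was read by a single dim probe, A_72_P223217. The minipig array gave it an intensity of 45.4 and the conventional pig array 44.5, where the dimmest probes flagged as well above background had 10.6 and 11.5, respectively. The log2 difference of -0.08 turned positive under median centring, quantile and loess normalization and reached 0.15. SLA-6, the neighbour of SLA-7, also had 1 probe, A_72_P237292, with intensities of 281 in the minipig and 275 in the conventional pig. Its log2 difference was -0.08 and turned positive under the same 3 scalings, with 0.07 as the highest value. Both genes thus differed by less than the spread of single spots, which for 1 probe on 1 array per breed is not evidence of equal levels.

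**Figure D2:**
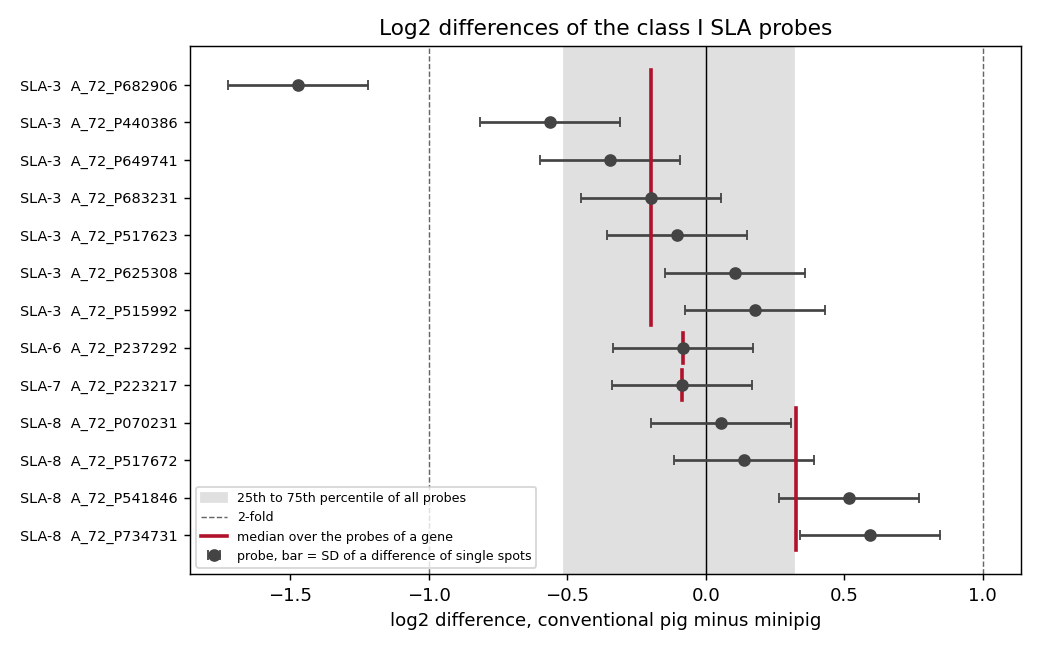
Points are the log2 differences of the 13 class I probes, conventional pig minus minipig, with bars of 1 SD of a difference between single spots (0.25). Red lines mark the median over the probes of a gene, the grey band spans the 25th to 75th percentile of all probes (-0.51 to 0.32) and dashed lines mark 2-fold. Of all 13, the SLA-3 probe at -1.47 alone lies past 2-fold, and the differences of SLA-6, SLA-7, the SLA-8 probe A_72_P070231 and 3 SLA-3 probes change sign under at least 1 other scaling.

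Across the 13 class I probes, 1 differed at least 2-fold, the SLA-3 probe A_72_P682906. Among all 38883 probes with a difference or a bound, 16.4% did so in either direction, 8.94% toward the minipig and 7.48% toward the conventional pig. At 1.5-fold there were 2 class I probes in either direction, against 37.0% of all probes, and at 1.3-fold there were 4, against 55.2%. Of the class I probes, 9 (69.2%) lay within 2 SD of single spots, and of all probes 56.8% did. The median difference over the class I probes was -0.08 and that over all probes was -0.12. The median of all probes shifted upward by 0.15 with median centring, to 0.04, by 0.11 with quantile normalization and by 0.098 with loess normalization. Taken over the 4 genes with probes, the class I median was -0.08, while the median over all 2363 named genes was 0.04, both under the scaling used throughout. The class I median became positive under these 3 other scalings, at 0.07 to 0.08. The median over all named genes under them is not given here, so 0.04 is no reference for these values. The class I median over genes is the mean of SLA-6 and SLA-7, each read by 1 probe. SLA-3 and SLA-8 lie on either side of them and do not set its size.

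The probes of SLA-3 disagreed with each other more than those of most genes. The log2 differences of its 7 probes spanned 1.65, with an SD of 0.56. Of the 30 other genes with 7 probes, all well above background, 1 had a larger span, and the median span of genes with 7 probes was 0.52. This width came from a single probe to a large part. Without A_72_P682906, a choice made after seeing the data, the remaining 6 probes spanned 0.74 with an SD of 0.28. Of 40 genes with 6 probes, 11 had a larger span. Leaving out an end probe always narrows a span, and the 40 genes kept theirs, so this count does not rank SLA-3 among them. Only 3.73% of all probes had a difference as low as that of A_72_P682906. The spots within 5 rows and columns of it had a median difference of 0.22, with quartiles at -0.27 and 0.54. A fault of the spot itself was not tested. The median difference of the surrounding spots lay between -0.22 and 0.23 for all class I probes. The 4 probes of SLA-8 spanned 0.54, close to the median of 0.49 for genes with 4 probes, and 60 of 139 other such genes had a larger span. Differences in sequence between the breeds at the probe positions were not analysed here.

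**Figure D3:**
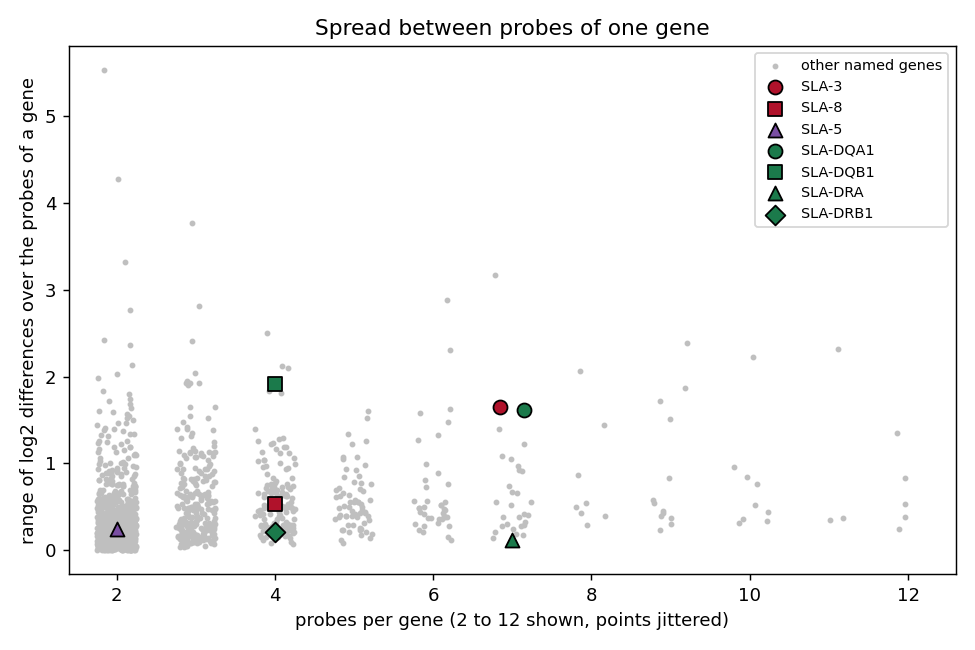
Each point is a named gene, with its number of probes well above background on both arrays on the horizontal axis and the range of their log2 differences on the vertical axis. Grey points are other genes with 2 to 12 probes (genes with more are not drawn), and coloured symbols are SLA genes. SLA-3 (1.65) and the class II gene SLA-DQA1 (1.61), drawn side by side, lie near the top of the genes with 7 probes and SLA-DRA (0.12) at the bottom, while SLA-8 (0.54) lies in the middle of the genes with 4 probes.

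The same comparison was made in the neighbouring class II genes, of which the DQ and DR genes encode the receptors that show peptides to helper T cells. Spans were also wide for SLA-DQB1, at 1.92 over 4 probes, and SLA-DQA1, at 1.61 over 7 probes. They were narrow for SLA-DRA, at 0.12 over 7 probes, and SLA-DRB1, at 0.21 over 4 probes. All 28 class II probes of 7 genes had a median log2 difference of 0.31, where that over all probes was -0.12. The class II median was 0.05 under quantile normalization, 0.13 under loess normalization and 0.46 under median centring. Of these probes 22 were brighter in the conventional pig, against 18 under quantile normalization and 26 under median centring. The share of all probes brighter in the conventional pig is not given here. SLA-DRA and SLA-DQA1 gave 7 of the 22 each. Gene medians were below 0 for SLA-DOB (-0.24) and SLA-DRB1 (-0.14) and above 0 for the others. That of SLA-DRB1 turned positive under median centring. Past 2-fold there were 2 class II probes (7.14%) toward the conventional pig, against 7.48% of all probes, and 0 toward the minipig, against 8.94%. The former number was 3 under quantile and loess normalization and 5 under median centring, where the share of all probes is not given here. The difference between class I and class II was not tested, since each rests on the same pair of arrays. SLA-5, a further class I locus outside the set, had a median difference of -0.13 over 2 probes, which turned positive under median centring.

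Other genes of class I presentation were taken from a list of 26 genes, of which 11 could be named on the array, too few to stand for all of them. The median over these was a log2 difference of 0.54. Past 2-fold toward the conventional pig were 3 of these genes, against 11.7% of all named genes, and toward the minipig 0, against 7.96%. Under quantile and loess normalization 2 were past 2-fold toward the conventional pig, and under median centring 4. The shares of all named genes under these scalings are not given here, so these counts have no background beside them. B2M, the gene of the light chain, had levels of 5.34 in the minipig and 6.51 in the conventional pig, as medians of 2 probes. Its log2 difference was 1.17, from probes at 1.10 and 1.24, and lay between 0.89 and 1.32 under the other scalings, below 2-fold with quantile and loess normalization. The light chain thus differed by 2.25-fold where the median of no heavy chain gene measured here reached 2-fold, a contrast that could not be tested with these arrays. PSME2, a subunit of the proteasome activator PA28, was at 2.13 from 1 probe, and PSME3, the gene of the related nuclear activator subunit, was at 1.26 from 1 probe. PSME1, the partner subunit of PSME2, was at -0.12, from probes at -0.13 and -0.12, and turned positive under median centring.

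The inducible catalytic subunits of the immunoproteasome were all higher on the conventional pig array under every scaling, each by less than 2-fold. PSMB9 was at 0.81, PSMB10 at 0.54 and PSMB8 at 0.37, with all of their probes in the same direction. CALR, the gene of calreticulin, was at 0.95 from 1 probe. TAP1, a subunit of the peptide transporter, was at -0.05, and its 2 probes disagreed, at -0.52 and 0.41. The sign of the TAP1 median changed under 3 of the other scalings. TAP2, TAPBP, CANX and PDIA3 had no named probe and were not analysed here. IRF1, a transcription factor that acts on class I promoters, was at 0.21, below 1.3-fold.

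**Figure D4:**
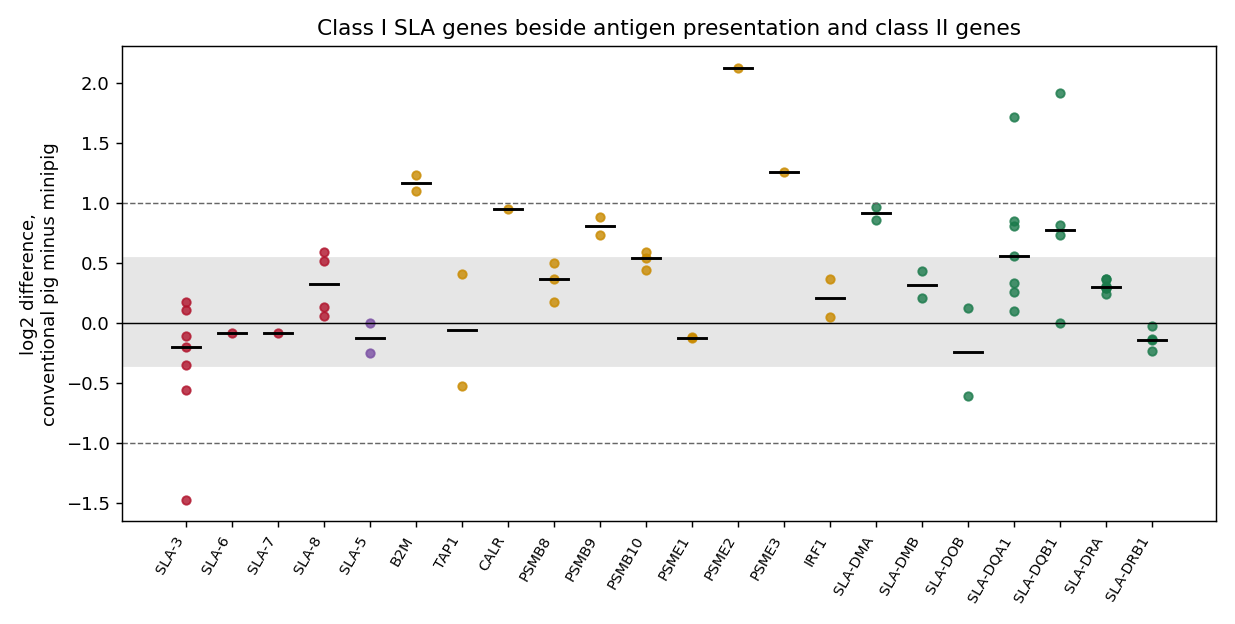
Points are log2 differences of single probes, conventional pig minus minipig, and black lines are medians over the probes of a gene, for class I SLA genes (red), SLA-5 (purple), other genes of class I presentation (yellow) and class II genes (green). The grey band spans the 25th to 75th percentile of all named genes (-0.36 to 0.55) and dashed lines mark 2-fold. The medians of B2M (1.17), PSME2 (2.13) and PSME3 (1.26) lie past 2-fold and those of the class I genes do not, although B2M is below 2-fold under quantile and loess normalization and the signs of SLA-6, SLA-7, SLA-5, TAP1, PSME1 and SLA-DRB1 depend on the scaling.

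Class I genes are induced by interferons, and 20 of 33 interferon-inducible genes on a further list had a value. Their median log2 difference was 0.17, with 11 above and 9 below 0, and it was 0.08 under normexp correction and 0.33 under median centring. CXCL10, a chemokine induced by interferon gamma, was the only one past 2-fold, at -1.04, where 11.7% of all named genes with a difference were past 2-fold toward the conventional pig and 7.96% toward the minipig, and it fell short of 2-fold under each other scaling.

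Markers of the cell types in ovary also differed between the arrays, and in whole tissue fewer cells of a type and less RNA per cell cannot be told apart. Summed levels are in multiples of the 75th percentile of the array. Luteal markers, 5 of 5 on the array, had a summed level of 40.0 in the minipig and 246 in the conventional pig, with log2 differences of 3.11 for HSD3B1, 3.07 for STAR and 2.63 for CYP11A1, which serve steroid synthesis, and of -0.62 for LHCGR, the LH receptor gene, which went the other way. Granulosa markers, 5 of 6, had 10.9 and 3.73 in the same order. The FSH receptor gene FSHR was at -3.63, INHA at -2.61, GATA4 at -1.13 and AMH at -1.03. CYP19A1, an aromatase gene, was at 0.09 from 2 probes that disagreed, at -0.34 and 0.52. Both arrays gave all probes of these granulosa markers an intensity well above background. CYP19A3, a further aromatase gene outside the list, was at -4.11 from 2 probes. Macrophage markers, 3 of 7, had 3.95 and 5.19, with CD14 at 1.04 and AIF1 at 0.74 but CD163 at -0.25. Endothelial markers, 2 of 5, had 1.86 and 2.54, and smooth muscle markers, 3 of 5, had 76.2 and 74.7, with DES at -2.00, CNN1 at -1.32 and ACTA2 at 0.10, which turned negative under quantile and loess normalization. T and NK cell markers, 7 of 10, had 2.27 and 1.66, and of the 6 with a log2 difference 3 were above and 3 below 0, with a median of 0.02. GZMB, the brightest of them, was at -0.70, with log2 levels of 0.62 in the minipig and -0.08 in the conventional pig. CD3G was at -1.31, with 1 of its 2 probes a bound, and came to -0.51 under normexp correction, whereas CD3E was at 0.22. CD3D was at 0.28 from 1 of its 2 probes, at dim median log2 levels of -5.17 in the minipig and -4.74 in the conventional pig. B cell markers, 2 of 4, had 0.16 and 0.15. Neither array had CD4 well above background, and PTPRC, the leukocyte common antigen, was not named by the matching. The part of these cells in the class I and B2M values was not tested.

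The genes closest to the class I median, among 1158 others with at least 2 probes, all well above background on both arrays, were ADIPOQ (-0.08), FABP5 (-0.09) and ADAM17 (-0.08). Likeness here is the distance between single log2 differences over 2 arrays, and 78 of these genes lay within 0.05 of the class I median. That median rests on the single probes of SLA-6 and SLA-7.

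**Figure D5:**
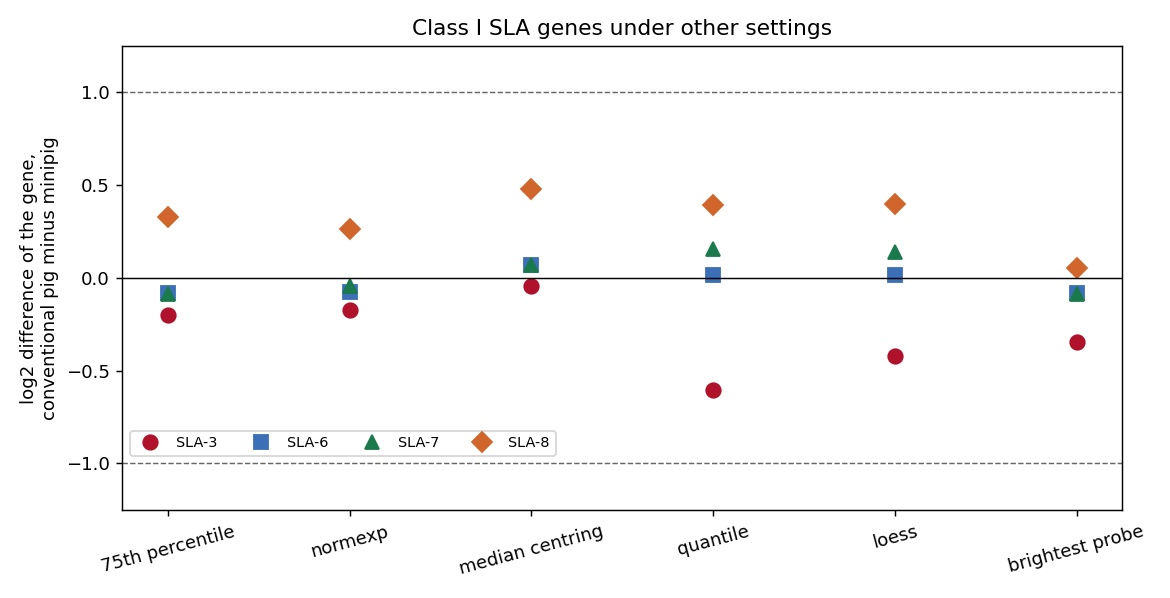
The vertical axis gives the log2 difference of each class I gene, conventional pig minus minipig, under the setting used throughout (75th percentile) and under 5 others, with dashed lines at 2-fold. SLA-8 (diamonds) lies above 0 and SLA-3 (circles) below 0 in each of them, while SLA-6 (squares) and SLA-7 (triangles) change sign under median centring, quantile and loess normalization.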

How the data were processed

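A commercial provider ran 1 Cy3 array per breed, and the authors deposited the output of Agilent Feature Extraction 10.7.3.1, in which each spot has an intensity corrected for background and spatial trend, not normalized between arrays. A deposited table of log2 values for 5617 probes lists only probes that differ at least 2-fold. Each of its columns matches the log2 intensities of the oppositely labelled array after a constant shift, to within 0.0246, and which labels are right is not known. The paper names GeneSpring, and the normalization is not given in the sources used here.

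Control spots and outlier spots (5 on the minipig array, 10 on the conventional pig array) were left out. Repeated spots were averaged as log2 values, from which the 75th percentile of each array was subtracted. Where 1 array alone had a probe well above background, the difference is a bound against the dimmest such probe of the other array, or the probe itself if brighter. Accessions without versions were matched to the RefSeq table of Sscrofa11.1, giving symbols to 5577 of 43597 probes (12.8%). Its coordinates were used only to order the genes. Genes are summarised by the median of their probes. No p-value was computed.

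The members and gene lists were chosen with earlier results of these data known. Named were all members, the genes of the lists past 2-fold (up to 3 each way), a fixed set of presentation genes and the 3 genes nearest to the class I median. PSMB10, PSME1, LHCGR, ACTA2, AIF1, CD163, CD3D, CD3E, GZMB, AMH, CYP19A1, CYP19A3 and the SLA genes outside the set lie outside this rule and were chosen after their values were seen. The values of some genes of the lists are not reported here. Cutoffs of 1.3-fold and 1.5-fold and spot surroundings were added after seeing the data. Alternatives were normexp background correction (offset 50, on median spot signals), median centring, quantile and loess normalization (span 0.3), no filter or a stricter filter on dim probes, outlier spots kept, the deposited log2 table and the brightest probe of a gene. Python 3.11.15, numpy 2.4.6, pandas 2.3.3, statsmodels 0.14.6, matplotlib 3.10.9, R 4.3.3 and limma 3.58.1 were used, and the steps were tested on simulated data.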

Additional observations from a re-analysis of the deposited data

How the results depend on the processing

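No paired analysis was possible because there is 1 array per breed, and no array could be left out. The median over the class I genes stayed within 0.25, the SD of a difference between single spots, of its value of -0.08 under all 9 alternatives, as did SLA-6 and SLA-7 under all 8 of theirs, although the sign of each changed under median centring, quantile and loess normalization. Some alternatives could not move these values. The filters on dim probes left every class I probe in, and SLA-6 and SLA-7 have 1 probe each, so the brightest probe is their only one. The class I median, the mean of these 2 genes, also stayed the same with the brightest probe and without A_72_P682906. SLA-3 moved from -0.20 to -0.60 under quantile normalization. In the deposited log2 table SLA-3 is represented by A_72_P682906 alone, at 1.48 with the breeds as labelled there. SLA-8 moved from 0.33 to 0.056 with its brightest probe. The number of class I probes past 2-fold was 1 under each setting that used the scanner intensities of all class I probes. Without A_72_P682906, an alternative chosen after seeing the data, it was 0. The deposited log2 table also gave 1, but it lists only probes that differ at least 2-fold, so its count is no check. The median of the presentation genes lay between 0.40 and 0.69. The deposited log2 table gives no value for SLA-6, SLA-7 and SLA-8, and none was computed from it for the class I median or the presentation list. Each class I probe was well above background on both arrays, so none of their differences is a bound.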
